A study of Mus musculus with 2197 samples.

Results

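The genes that encode the proteins of the cytosolic ribosome were followed across single cells of the embryonic mouse pancreas. A gene was taken as a member when its symbol began with Rpl or Rps, continued with a number and ended there or with a, l, x or y, or when it was Rplp0, Rplp1, Rplp2 or Rpsa. Pseudogene symbols with -ps were left out. By this rule 81 of the 40824 genes of the Smart-seq2 table were members. Each of 2 droplet libraries listed 27998 genes, of which 81 were members, and 80 members were shared by both methods. Rps4l was listed in the Smart-seq2 table alone and Rpl6l in the droplet tables alone. A few genes of the same ribosome with other symbols, such as Fau, Rps3a1 and Rpl22l1, fell outside the rule and were kept as a separate list of 7.

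A ribosome is built from ribosomal RNA and one copy of most of these proteins, with the Rpl proteins in the large subunit and the Rps proteins in the small one. Their mRNAs are among the most abundant of a growing cell, and their transcripts begin with a run of C and T bases, the terminal oligopyrimidine tract, through which the mTOR kinase controls their translation. During pancreas formation, dividing progenitors of the trunk give rise to duct cells and, through a short stage marked by the transcription factor Neurog3 (Ngn3), to endocrine cells that leave the cell cycle, while the tips give rise to acinar cells that secrete digestive enzymes.

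Smart-seq2 reads full-length transcripts from sorted single cells, and 2195 cells in 29 groups were used. Sorted cells came from Pdx1-GFP+ embryos at E9.5, E10.5 and E11.5 with a Pdx1-GFPhigh gate at E10.5, from Pdx1-Cre;Rosa-RFP embryos daily between E10.5 and E15.5, and at E11.5 from Ngn3-Cre;Rosa-RFP and Ptf1a-CreER;Rosa-RFP embryos. Ngn3-GFP knock-in embryos gave GFP+ cells at E10.5, E12.5, E16.5 and E17.5 and, on the 3 days from E13.5, separate GFPhigh and GFPlow gates. Hormone-producing cells were sorted as Ins1-RFP+ at E15.5 and from Gcg-P2A-GFP embryos at E15.5 and E17.5, and RFP+ cells from Sox9-CreER;Rosa-RFP embryos at E16.5 and E17.5. The last 2 groups were Ins1-RFP+ cells of E13.0 dorsal pancreata kept for 2 days in culture without or with 10 µM of U0126, which blocks the kinases MEK1 and MEK2. Pdx1-Cre and Ngn3-Cre label every descendant of a cell in which the driver was once active, and the inducible CreER lines label cells in which the driver was active at induction and their descendants, so such a sort holds more than the cell type the driver is named for. Whole digested E14.5 pancreas was profiled in the 2 droplet libraries, which count molecules near the 3′ end.

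A Smart-seq2 cell held 176524 to 2118160 counts, with member genes taking a median of 2.78% of a cell's counts (0.127% to 13%) and a median of 78 members detected. Cells were summed into 82 sets of 6 to 71 cells, by the first of the 2 numbers in each cell's title. What a set stands for is not given, so every p-value refers to the spread among sets, and this spread may be technical. With 1 set alone, the 11 cells sorted as Gcg-GFP+ at E17.5 entered no test. In 245 cells at least 4 markers of a non-epithelial type reached 100 CPM (counts scaled to a total of 1000000), and most of these were leukocyte markers in the Ngn3-GFPlow and early Ngn3-GFP+ sorts. In summed sets, fewer cells of a type and less RNA per cell cannot be told apart.

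The bases around the annotated start of a member's transcript are shown for the genes that the results below turn on. The longest run of C and T is in capitals. In Rplp0, Rpl37a and Rps27l it lies before the annotated start and so outside the annotated transcript. Each window is 30 bases from RefSeq (GRCm38.p6), 5′ to 3′ on the gene's strand, with the annotated start after its first 15 bases. The stalk genes Rplp0 and Rplp2 come first, followed by Rpsa. Then come 4 of the members with large differences between lineages, the member that differed least, the pair Rps27 and Rps27l, and last the longest run found.
Rplp0: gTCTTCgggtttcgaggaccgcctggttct
Rplp2: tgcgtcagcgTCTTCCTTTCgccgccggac
Rpsa: gtgggttatttaaggacgtcaTTTCCggcc
Rpl36a: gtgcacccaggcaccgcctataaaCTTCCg
Rpl12: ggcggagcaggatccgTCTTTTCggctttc
Rpl39: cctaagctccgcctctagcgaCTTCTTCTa
Rps12: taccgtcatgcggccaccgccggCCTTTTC
Rpl37a: TTCCgctcgccggtctaaaaccgcgcatgc
Rps27: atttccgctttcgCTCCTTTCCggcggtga
Rps27l: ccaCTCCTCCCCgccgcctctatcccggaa
Rpl7a: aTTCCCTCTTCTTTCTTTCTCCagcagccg

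These windows lie at chr5:115559452-115559481 for Rplp0, chr7:141447636-141447665 for Rplp2, chr9:120127751-120127780 for Rpsa and chrX:134585639-134585668 for Rpl36a. Rpl12 starts at chr2:32961697-32961726 and Rpl37a at chr1:72711245-72711274, and Rps27l at chr9:66946071-66946100 and Rpl7a at chr2:26910792-26910821. All 8 are on the plus strand. Rpl39 at chrX:37085208-37085237, Rps12 at chr10:23787195-23787224 and Rps27 at chr3:90213634-90213663 are on the minus strand. RefSeq entries were found for 60 members and 21 had none. A run of at least 8 C or T bases lay in the window, on either side of the start, in 24 of the 60 (40%), against 3205 of 27025 genes with an entry (11.9%). Runs before the start were not left out, so this is not a count of terminal oligopyrimidine tracts. The median longest run was 6.5 bases in members and 4 in all genes. The longest, in Rpl7a, had 21 bases. Rpl37a, the common member that differed least between Sox9-CreER and Ngn3-GFP+ cells, had a longest run of 4, and Rpl36a, which differed most there, had 5. Rps27 and Rps27l each had a run of 9 in unlike surroundings.

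Member genes took the largest share of counts in acinar cells and the smallest in beta cells. Cells were assigned to a class when at least 4 markers of that class reached 100 CPM and no other class had as many, which placed 1758 cells and left 437 without a class. Over the sets with at least 5 cells of a class, the share was 4.33% to 6.12% in acinar cells (median 5.25%, 13 sets) and 3.14% to 5.05% in trunk and duct cells (median 4.09%, 28 sets). Endocrine progenitors held 2.47% to 4.36% (median 3.09%, 14 sets) and late endocrine precursors 1.69% to 2.55% (median 2.03%, 9 sets). Alpha cells held 1.47% to 2.33% (median 1.95%, 35 sets) and beta cells 1.12% to 2.27% (median 1.49%, 21 sets). No acinar set overlapped an alpha, beta or late precursor set, and no trunk set did, whereas neighbouring classes in this order overlapped.

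**Figure D1:**
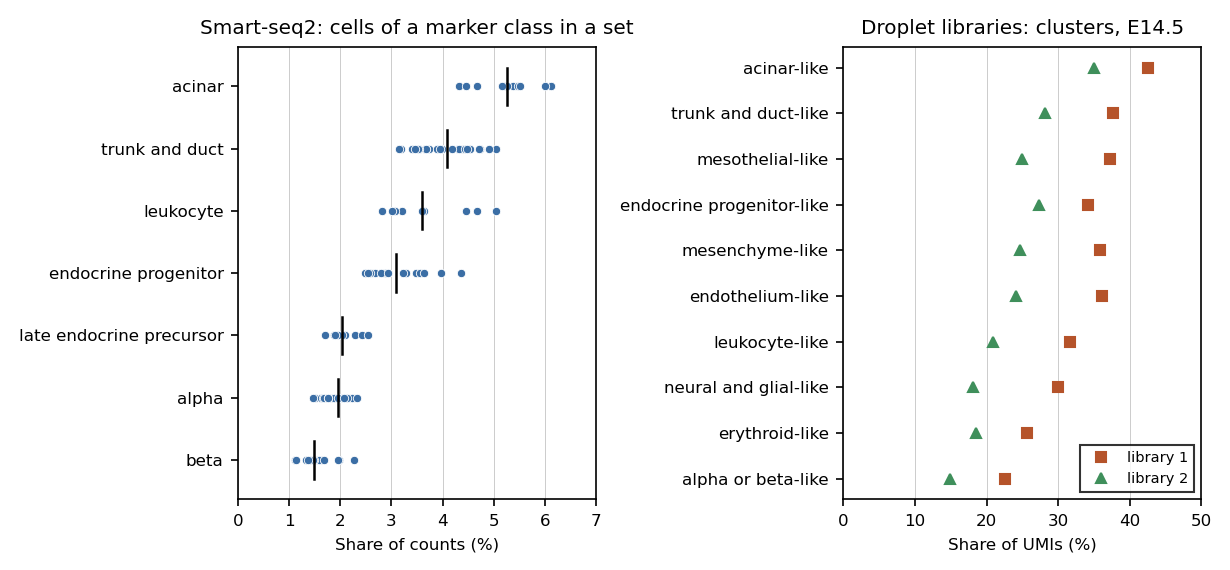
Share of counts in member genes by cell class: left, Smart-seq2, 1 dot per set with at least 5 cells of the class and a black bar at the median; right, droplet clusters, squares for library 1 and triangles for library 2, as a share of molecules. Acinar cells lie highest in both panels (median 5.25% on the left) and alpha and beta cells lowest, at 22.5% and 14.8% of molecules on the right.

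For the pairs of classes compared, the order held in most or all of the sets that contained both. Late precursors and alpha cells were not among these pairs. Alpha cells held the higher share in the third Pdx1-Cre set of E14.5 (2.06% against 1.90%), and late precursors in the other sets with both. Acinar cells had the higher share in 7 of 7 sets with trunk cells, by a median of 1.29 percentage points. Trunk cells exceeded endocrine progenitors in 6 of 6 sets (0.676 points) and alpha cells in 9 of 9 (2.62 points). Endocrine progenitors exceeded late precursors in 5 of 5 sets (1.04 points), and late precursors exceeded beta cells in 6 of 6 (0.480 points). Of the pairs compared, alpha and beta cells differed least, with alpha higher in 6 of 7 sets by 0.283 points. The class at the low end also carried most hormone mRNA, a median of 8.70% of counts in beta cells. With hormone and digestive enzyme genes taken out of the total, the medians were 5.67% in acinar, 4.09% in trunk, 3.09% in endocrine progenitor, 2.08% in late precursor, 2.07% in alpha and 1.73% in beta cells. Late precursors then fell below beta cells in the first Ngn3-GFP+ set of E17.5 (2.08% against 2.13%) and stayed above in the other sets with both. Alpha cells then lay above late precursors in the first Ngn3-GFP+ set of E16.5 too (2.41% against 2.34%), and below in the other Ngn3-GFP sets with both. The median total per cell was lower in acinar (580220 counts) and trunk cells (642740) than in alpha (943260) and beta cells (895360), and the part of this difference in the shares was not tested. Near the threshold of 4 markers lay 98 of the 356 trunk cells and 1 of the 314 beta cells.

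Single members followed the same order with different steps. From trunk to alpha cells, 73 of the 78 members with counts in every class and set were lower in all 9 sets, by a median of -1.12 on the log2 scale. Rpl36a, a large-subunit protein near the exit site for tRNA, fell the furthest at -2.05, from a median of 360 CPM in trunk cells to 104 in alpha cells. Rpl32 and Rps4x, both common members, stood at -1.71 each, and Rpl39, a small protein of the exit tunnel, at -1.63. At the other end Rps4l, an S4-like paralogue, was at 0.15 and higher in 6 of the 9 sets. These members, and those named beside the class ratios below, were chosen after their values were seen. The share of all genes that moved the same way in every set or in both libraries was not counted. The counts of members by cell class and by droplet cluster, here and below, therefore have no background.

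The steps along the endocrine path were unequal. Endocrine progenitors were lower than trunk cells in all 6 sets for 32 of 78 members, with a median ratio of -0.32. Rpl12, which sits at the base of the stalk, had the lowest median (-0.73, lower in 5 of 6 sets), and Rpl37a the highest (0.10, higher in 4 of 6). Late precursors were lower than endocrine progenitors in all 5 sets for 72 of 78 members, with a median of -0.63. In that step Rps12 changed most (-1.24), followed by Rpl39 (-1.08) and Rps19 (-1.06), and Rpl18 and Rps4l least (both -0.09). From late precursors to beta cells 33 of 78 members were lower in all 6 sets, with a median of -0.28 and Rps4l at 0.95. Of the pairs compared, beta and alpha cells differed least. Of 78 members 16 were lower in beta cells in all 7 sets, with Rpl22 at -0.69 and Rpl9 at -0.68.

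The stalk genes show the levels behind these ratios. Rplp0, Rplp1 and Rplp2 encode the acidic stalk to which translation factors bind. Rplp0 was at 1762 to 2553 CPM in acinar sets (median 2086), 1147 to 2060 in trunk sets (median 1522) and 850 to 1313 in endocrine progenitor sets (median 1053). It was at 485 to 822 CPM in late precursors, 455 to 867 in alpha cells and 422 to 661 in beta cells. These last 3 ranges overlapped one another and, except for the top of the alpha range, lay below every endocrine progenitor set. Rplp1 went from a median of 623 CPM in acinar to 459 in trunk and 181 in beta cells, and Rplp2 from 489 to 382 and 163. Rpsa, a small-subunit protein also known as the laminin receptor precursor, went from 612 to 439 and 143 CPM. All 4 genes were highest in acinar cells and lowest in beta cells by their medians.

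Rps27l, a paralogue of Rps27 known as a target of p53, was the member that stood furthest from the rest in acinar cells. Its level was 379 to 1171 CPM in 13 acinar sets (median 536) against 166 to 421 in 28 trunk sets (median 244). Rps27 itself was at 239 to 441 CPM in acinar sets (median 275) and 253 to 514 in trunk sets (median 354). Within the 7 sets that held both classes, Rps27l was higher in acinar cells in 7, with a median log2 ratio of 1.01, the highest of 78 members. Rps27 had the lowest, -0.21, and was higher in acinar cells in 2 of the 7. The other members lay between, 69 of 78 being higher in acinar cells in all 7 sets, with a median of 0.42. In the other classes Rps27l ranged over less, with medians of 217 CPM in endocrine progenitors, 155 in late precursors, 197 in alpha and 163 in beta cells.

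**Figure D2:**
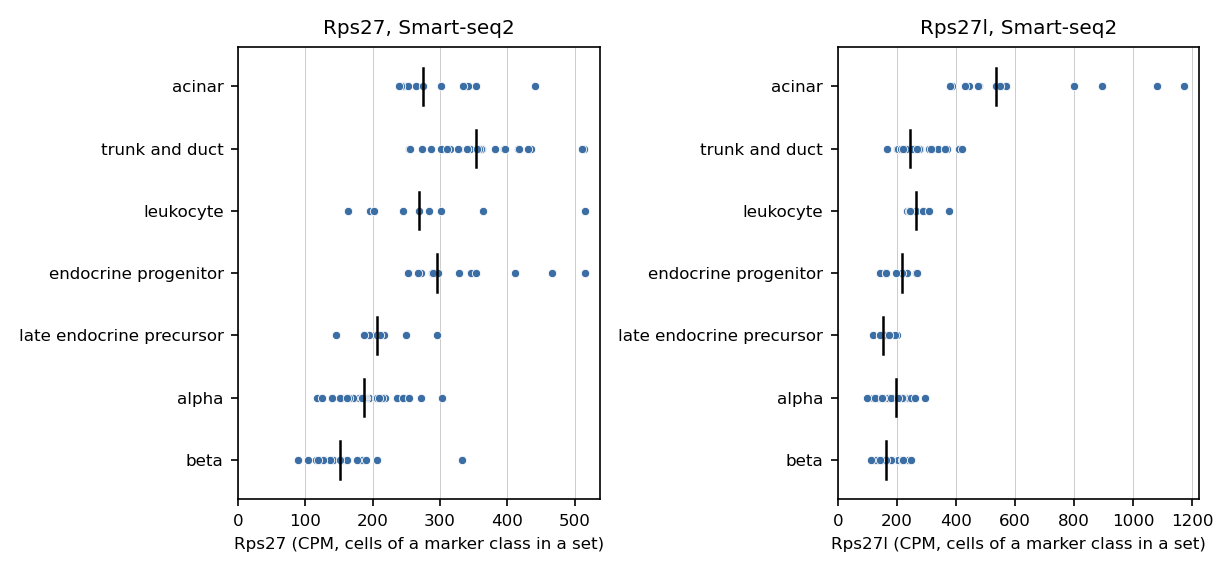
Rps27 (left) and Rps27l (right) in CPM by Smart-seq2 cell class, 1 dot per set with at least 5 cells of the class and a black bar at the median. Rps27 is highest in trunk cells (median 354), whereas Rps27l is highest in acinar cells (median 536) and at most 421 in a trunk set.

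The droplet libraries gave the same contrast for this pair. In library 1 the log2 ratio of acinar-like over trunk and duct-like clusters was 0.50 for Rps27l and -0.14 for Rps27. In library 2 it was 1.09 and -0.01. Rps27l had the highest and Rps27 the lowest ratio of the 77 members compared in each library. Of these 77, 75 were higher in acinar-like clusters in both libraries, Rps27 alone was lower in both, and Rpl7 changed sign (-0.01 and 0.12). Of the 50-base windows of the Rps27l transcript 13.7% recur in another gene, against 63.1% for Rps27, whose counts are therefore less certain.

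In time, 1 of 78 members, Rps27l, was called along the Pdx1-Cre lineage, in a fit of 19 sets with the day as a number. Its sets held 272 and 319 CPM at E10.5, 306 and 359 at E11.5, 222 to 393 at E12.5, 281 to 359 at E13.5, 218 to 493 at E14.5 and 591 to 943 at E15.5. Only the 3 sets of E15.5 lay above every earlier set. The change was 0.27 on the log2 scale per day (SE 0.07, adjusted p = 0.0368 by edgeR's quasi-likelihood test with Benjamini-Hochberg adjustment over all genes), against a background of 3.11% of genes called higher, so that the share of members called was below that of all genes. With limma or total-count scaling no member was called, and DESeq2 called 2. In these sorts 0 of 80 cells at E10.5, 25 cells at E14.5 and 46 of 79 at E15.5 were acinar by their markers, and the part of this in the change was not tested. Rps27 was at 224 to 297 CPM at E15.5, within its range at the other days, with a change of 0.03 per day. The remaining 76 members tested were not called in either direction (background 1.46% lower; median change 0.05 per day, 0.01 over all genes). No member was called when any 1 of 7 sets was left out: the first set of E10.5 or E11.5, the third or the fourth of E12.5, or any set of E15.5.

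Across the 29 sorted groups the member share of a set ran from 1.12% to 4.90%. Explant beta cells were lowest, at 1.12% to 1.49% with U0126 and 1.13% to 1.41% without, next to freshly sorted Ins1-RFP+ cells at 1.35% and 1.59%. Gcg-GFP+ cells of E15.5 held 1.84% and 1.96%. The late Ngn3-GFP+ sets held 1.63% to 2.41% at E16.5 and 1.77% to 2.37% at E17.5, all below the 4 Sox9-CreER sets, at 3.46% to 4.71%. Among early sorts, Pdx1-GFP+ sets held 2.44% to 2.89% at E9.5 and 3.34% and 3.40% at E11.5. The highest single sets were Pdx1-Cre sets of E12.5 and E13.5, at 4.88% and 4.90%, and sets of the same sort and day reached down to 2.99% and 3.06%.

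**Figure D3:**
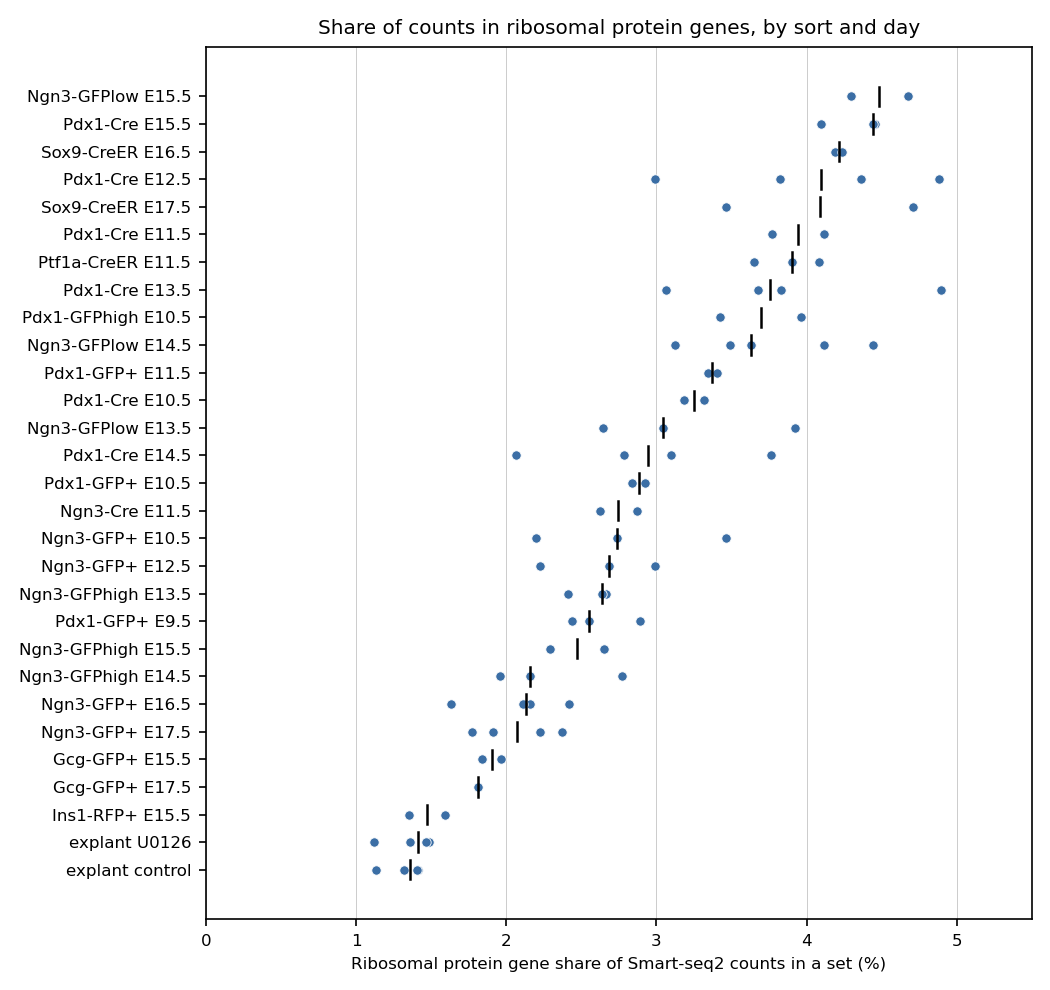
Share of counts in member genes (%, x axis) for the 29 sorted groups, 1 dot per set and a black bar at the group's median, ordered by median. Explant and Ins1-RFP+ beta cells lie between 1.12% and 1.59%, and Sox9-CreER, Ngn3-GFPlow E15.5 and Pdx1-Cre E15.5 sets at 3.46% or more.

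The largest contrast between sorts was that of Sox9-CreER with Ngn3-GFP+ cells at E16.5 and E17.5, where 77 of 80 members tested were higher in the Sox9-CreER sets (background 11.4% of genes) and none was lower (13.6% of genes). The median over members was 1.06 on the log2 scale, against -0.17 over all genes. Rpl36a was at 318 and 351 CPM at E16.5 and 372 and 317 at E17.5 in the Sox9-CreER sets, and at 118, 83.7, 121 and 159 and 151, 104, 99.2 and 80.4 in the Ngn3-GFP+ sets. The 2 groups did not overlap, and the difference was 1.64 (SE 0.19, adjusted p = 2.52e-05, edgeR). Rpl12 followed at 1.50 and Rpl39 at 1.43, then Rpl23a, a protein of the tunnel exit, at 1.42 and Rps26, which lines the path of the mRNA, at 1.39. Rps12 (1.37) and Rpl5 (1.36), which carries the 5S RNA into the ribosome, were also among the 8 largest.

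The stalk genes were less uniform between sets. Rplp0 stood at 1652, 1694, 1763 and 1674 CPM in the 4 Sox9-CreER sets and at 627 to 807 CPM in the 8 Ngn3-GFP+ sets, a difference of 1.32 (SE 0.13, adjusted p = 8.26e-06, edgeR). Rplp1 was at 576, 593 and 621 CPM in 3 Sox9-CreER sets but at 286 in the second set of E17.5, inside the range of 195 to 319 in the Ngn3-GFP+ sets. The same set was low for Rpsa, with 299 CPM against 509, 667 and 671 in the other 3, while Ngn3-GFP+ sets held 119 to 337. Both genes passed the test, at 1.14 and 1.31.

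Of the 3 members that did not pass, Rps4l was at 51.3 to 67.6 CPM in Sox9-CreER and 41.2 to 104 in Ngn3-GFP+ sets, a difference of -0.39 with adjusted p = 0.224 (edgeR). Rpl3l and Rpl39l had no count in the Sox9-CreER sets. Among common members that passed, Rpl37a changed least, with 388 to 571 CPM against 274 to 431, overlapping ranges and a difference of 0.47 (SE 0.15, adjusted p = 0.0323, edgeR). The paralogue pairs with counts in all sets moved together for S27, with Rps27 at 0.84 and Rps27l at 1.07, and not for S4, with Rps4x at 1.31.

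The Sox9-CreER sorts of the 2 days were not alike in composition. At E16.5, 39 of 55 cells were acinar by their markers and 10 trunk and duct, and at E17.5 33 of 34 were trunk and duct and 1 acinar. The comparison was therefore repeated within each day, a choice made after seeing the data. With the E17.5 sets alone 57 of 80 members were higher, with a median of 0.94, and with the E16.5 sets alone 75, with a median of 1.18. The pair Rps27 and Rps27l differed between these days. Rps27 held 257 and 273 CPM at E16.5 and 511 and 427 at E17.5, and Rps27l 462 and 431 at E16.5 and 364 and 264 at E17.5. Rps27 was thus higher in both E17.5 sets and Rps27l in both E16.5 sets, a difference that was not tested. The Ngn3-GFP+ sorts were mixed as well, with 44 beta, 21 alpha and 17 trunk and duct cells among 130 at E16.5 and 56, 18 and 4 among 125 at E17.5.

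**Figure D4:**
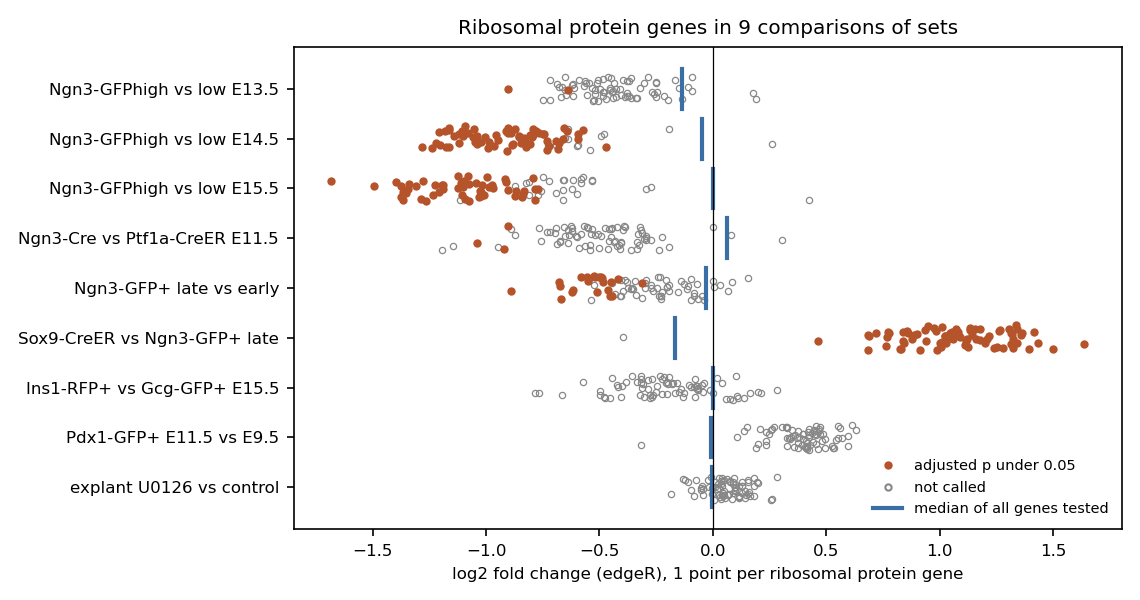
Fold changes (log2, edgeR) of member genes in 9 comparisons of sets, 1 point per member, filled where adjusted p was under 0.05 and open where it was not, with a blue bar at the median of all genes tested; Rpl3l, Rpl10l and Rpl39l are left out. The points of Sox9-CreER against Ngn3-GFP+ lie right of 0 except for Rps4l at -0.39, and those of U0126 against control lie between -0.18 and 0.28.

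Genes that build or serve the ribosome were counted beside the members in the same fit. Of 36 ribosome biogenesis genes 30 were higher in Sox9-CreER sets, with a median of 1.13, among them Gnl3 at 1.96 and Dkc1, of the pseudouridine synthase complex, at 1.91. Of 20 translation factors 14 were higher and 1 lower, led by Eef1b2 at 1.07. Of 76 mitochondrial ribosomal protein genes 35 were higher and 3 lower, with a median of 0.46. Of the 7 cytosolic ribosome genes with other symbols 6 were higher. Cell cycle genes differed in the same sets, with 16 of 16 S phase and 7 of 18 G2/M genes higher, and their part in the member difference was not tested.

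Within the Ngn3-GFP gates, most members were lower in GFPhigh than in GFPlow cells at E14.5 and E15.5, and 2 were at E13.5. At E14.5, 66 of 78 members were lower and none higher (background 9.01% of genes lower and 6.04% higher), with a median of -0.86 against -0.05 over all genes. Rpl13 had the largest change, from 618 to 845 CPM in 5 GFPlow sets to 335, 399 and 302 in 3 GFPhigh sets, without overlap (-1.28, SE 0.17, adjusted p = 0.000458, edgeR). Rpl35 (-1.24), Rpl32 (-1.20), Rplp1 (-1.18) and Rps2 (-1.16) were also among the 8 largest. Rplp0 was at 662, 789 and 628 CPM in GFPhigh sets and 1545, 1345, 1146, 1301 and 1503 in GFPlow sets. At the flat end, Rpl37a held 384 to 589 CPM in GFPhigh and 376 to 629 in GFPlow sets (-0.19, adjusted p = 0.509, edgeR) and Rps4l was at 0.26. Rps27l was called (-0.47, adjusted p = 0.0383, edgeR), while Rps27 was not (-0.65, adjusted p = 0.0707, edgeR).

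At E15.5, 53 of 78 members were lower and none higher (background 5.58% lower and 3.4% higher), with a median of -0.99. Rps12, a small-subunit protein, had 93.2 and 95.8 CPM in the 2 GFPhigh sets and 278 and 282 in the 2 GFPlow sets (-1.68, SE 0.31, adjusted p = 0.00640, edgeR). Rpl12 (-1.49), Rpl36a (-1.39), Rpl39 (-1.38), Rpsa (-1.38), Rplp1 (-1.37), Rps2 (-1.36) and Rps20 (-1.35) were next. With 2 sets a gate the count rested on single sets: it was 7 and 1 without the first or second GFPhigh set and 20 and 6 without the first or second GFPlow set.

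At E13.5 only Rplp1 and Rps16 were called lower and none higher (background 4.61% lower and 1.61% higher), a share of members no larger than that of all genes. At an unadjusted p under 0.05 there were 43 members. Backgrounds here and below are for adjusted p, and no share of all genes is given for an unadjusted p. Rplp1 was at 209, 277 and 272 CPM in GFPhigh and 481, 449 and 378 in GFPlow sets (-0.90, SE 0.23, adjusted p = 0.0322, edgeR), and Rps16 stood at -0.64. At most 1 call remained when any 1 of the 6 sets was left out. The median over members was -0.45, against -0.14 over all genes. The change of the gate difference between E13.5 and E15.5 had its own test: its median over members was -0.55 and none of the 78 was called by edgeR in either direction (background 0.0474% lower and 0.0737% higher), with 18 at an unadjusted p under 0.05, all in the direction of a larger difference at E15.5. A difference between the days was therefore not shown for any member.

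The GFPlow gates held many leukocytes, which carry their own member levels. Leukocyte-marked cells were 52 of 118 at E13.5, 31 of 104 at E14.5 and 15 of 37 at E15.5, and the 8 leukocyte markers summed to 1315 to 8261, 8.93 to 8968 and 3505 to 4936 CPM in these sets, against at most 12.2 CPM in any GFPhigh set. Leukocytes held 2.82% to 5.05% of counts in members (median 3.60%, 9 sets). With marker-carrying cells removed, 38 members were lower at E14.5 (median -0.72), 3 at E15.5 (median -0.73) and none at E13.5 (median -0.14). The rest of the gates differed in stage: at E14.5 GFPlow held 47 trunk and 12 endocrine progenitor cells, and GFPhigh 32 endocrine progenitor, 23 late precursor, 23 beta and 18 alpha cells. At E13.5 GFPlow held 24 alpha and 19 trunk cells, and GFPhigh 46 endocrine progenitor, 19 late precursor and 3 alpha cells. Without marker-carrying cells the E13.5 member shares overlapped, at 3.925%, 2.49% and 1.98% in GFPlow and 2.41%, 2.67% and 2.64% in GFPhigh sets. At E14.5, 19 of 36 ribosome biogenesis genes were lower in GFPhigh sets, with Nhp2 at -2.04 and Dkc1 at -1.98, 8 of 20 translation factors were lower, and all 16 S phase genes were lower. Of 77 mitochondrial ribosomal protein genes 16 were lower and 1 higher. Myc, a transcription factor that drives ribosome production, was lower at -3.68.

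Between early and late Ngn3-GFP+ cells the difference was smaller. Of 80 members tested 23 were lower at E16.5 and E17.5 than at E10.5 and E12.5 and none was higher (background 11.4% of genes lower and 8.29% higher), with a median of -0.31. Rpl36a was at 135 to 235 CPM in the 6 early sets and 80.4 to 159 in the 8 late sets, with overlapping ranges (-0.68, SE 0.17, adjusted p = 0.0119, edgeR). Rps23, a protein of the decoding centre (-0.67), Rps25 (-0.67), Rpl5 (-0.62) and Rps2 (-0.62) were also called. Rpl10, which joins the large subunit late in assembly, was at 318 to 567 CPM early and 386 to 561 late (0.16, not called), and Rpl37a was at 0.07. Leukocyte-marked cells were 13 of 62 at E10.5 and 38 of 121 at E12.5, against 0 of 130 at E16.5 and 1 of 125 at E17.5, and the 8 leukocyte markers were all lower in late sets. Without the marker-carrying cells no member was called by edgeR and the median was -0.08. The count was 8 without the first set of E10.5, 12 and 10 without the first and second of E12.5, 15, 11 and 14 without the first, the second and the third of E16.5, and 11 without the fourth of E17.5. The late sets here are the ones that the Sox9-CreER sets were compared with.

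In the other comparisons few members or none were called. At E11.5, Ngn3-Cre cells had lower levels than Ptf1a-CreER cells for 3 of 78 members (background 0.336% of genes lower and 0.447% higher) and higher for none, with 54 at an unadjusted p under 0.05 and a median of -0.50. The 3 were Rps12, with 119 and 107 CPM against 216, 203 and 264 (-1.04, adjusted p = 0.0473, edgeR), Rps15, near the decoding site, with 216 and 241 against 397, 443 and 419 (-0.92), and Rpsa, with 254 and 283 against 508, 432 and 529 (-0.90). DESeq2 called 38. Leaving out the first Ptf1a-CreER set gave 12 calls, and leaving out any other of the 5 sets gave 0. No set of one sort overlapped the other for these 3 genes. By their markers 19 of 44 Ngn3-Cre cells were alpha and 2 trunk and duct, against 4 and 35 of 79 Ptf1a-CreER cells, and 9 against 2 cells carried markers of non-epithelial types. The part of this composition in the difference was not tested. In Pdx1-GFP+ cells, 77 of 78 members had higher estimates at E11.5 than at E9.5 (median 0.41) and 51 had an unadjusted p under 0.05. After adjustment edgeR called none (background 0.036% higher and 0.012% lower) and DESeq2 called 6. The unadjusted counts of both comparisons have no share over all genes beside them. Rplp0 was at 1039, 934 and 907 CPM at E9.5, 1032 and 1023 at E10.5 and 1312 and 1307 at E11.5.

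Ins1-RFP+ and Gcg-GFP+ cells of E15.5 did not differ in any of 79 members by edgeR (background 0.335% higher and 0.358% lower), with 8 at an unadjusted p under 0.05, all lower in Ins1-RFP+ cells, and DESeq2 called 2. The median was -0.20. Rplp0 was at 523 and 612 CPM in Ins1-RFP+ and 669 and 654 in Gcg-GFP+ sets, and Rpsa at 119 and 133 against 148 and 165. All 39 Ins1-RFP+ cells were beta by their markers and 29 of 36 Gcg-GFP+ cells alpha.

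U0126 was not seen to change any member. None of 78 was called by edgeR or DESeq2 and none had an unadjusted p under 0.05, and the background was 0% of 12632 genes. The estimates ran from -0.18 for Rpl5 to 0.28 for Rpl7 with a median of 0.06. Rplp0 was at 437, 463, 422 and 451 CPM with U0126 and 436, 423, 474 and 426 without, which gave 0.03 with an SE of 0.13. These explant cells were beta cells by their markers in 60 of 60 treated and 57 of 58 control cells, and a p that misses the threshold does not show equal levels.

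Whole E14.5 pancreas in droplets gave a higher member share and the same order of those epithelial classes that were named there. The libraries held 3402 and 6575 cells after filtering, with a median of 9238.5 and 4901 molecules (unique molecular identifiers, UMIs) a cell, and members took 37.0% and 27.3% of UMIs. Clusters were named from marker genes, and alpha and beta cells were kept as 1 class because library 1 did not separate them. No cluster was named as late precursor, so the place of that class in the order was not compared. Acinar-like cells had 42.5% in library 1 (Wilson 95% interval 42.5% to 42.6%, 367 cells) and 35.0% in library 2 (34.9% to 35.0%, 962 cells). Trunk and duct-like cells had 37.6% (37.6% to 37.7%) and 28.2% (28.2% to 28.3%), and endocrine progenitor-like cells 34.2% (34.1% to 34.3%) and 27.4% (27.3% to 27.4%). Alpha or beta-like cells had 22.5% (22.5% to 22.6%, 162 cells) and 14.8% (14.8% to 14.9%, 513 cells). The intervals cover counting error only, and with 1 sample a library no test was made.

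Alpha or beta-like cells were the lowest of 10 named classes in both libraries. Between them and the trunk lay the mesothelial-like (37.3% and 24.9%), endothelium-like (36.1% and 24.1%), mesenchyme-like (35.9% and 24.6%) and leukocyte-like clusters (31.7% and 20.9%). Neural and glial-like clusters had 29.9% and 18.2% and erythroid-like ones 25.6% and 18.5%. Depth differed alongside, the median being 16178 and 7595 UMIs in trunk and duct-like cells and 9238 and 4732 in alpha or beta-like cells, with 21311 and 14234 in acinar-like and 8523 and 7259 in endocrine progenitor-like cells, and its part in the shares was not tested. Without hormone and enzyme genes the alpha or beta-like share was 23.4% and 15.7%.

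In the droplets each of the 77 members with enough UMIs was lower in alpha or beta-like than in trunk and duct-like cells in both libraries, with medians of -0.72 and -0.94. Rpl36a was at -1.30 in library 1 and -1.63 in library 2, Rpl12 at -1.45 and -1.53, and Rpl39 at -1.28 and -1.44. The smallest decreases were those of Rpl4 (-0.15 and -0.44), a protein of the exit tunnel, Rpl10 (-0.27 and -0.50) and Rpl37a (-0.31 and -0.37). Rps24 was the member on which the libraries differed most, with -1.79 and -0.83. Rpl4 and Rps24 were picked out after their values were seen. Endocrine progenitor-like cells were less distinct from the trunk: 42 members were lower in both libraries, 8 higher in both (among them Rps7, Rps9, Rps14, Rpl9, Rpl24, Rpl26 and Rpl37a), and 27 of unlike sign. As for the cell classes, no share over all genes was counted beside these numbers.

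The order of members by change was alike in the 2 methods. Over 77 members, the Smart-seq2 difference between Sox9-CreER and Ngn3-GFP+ sets ran against the alpha or beta-like ratio with r = -0.79 in library 2 and -0.62 in library 1 (Spearman's rho -0.77 and -0.65), and the 2 libraries gave r = 0.81 with each other (rho 0.88). The GFPhigh against GFPlow change at E14.5 followed the alpha or beta-like ratio with r = 0.66 in library 1 and 0.79 in library 2, and the endocrine progenitor-like ratio with r = 0.35 and 0.45. For acinar-like over trunk and duct-like cells the 2 libraries gave r = 0.81. These are descriptions across genes, which are not independent replicates, and the droplet ratios share their trunk and duct-like cells. The Smart-seq2 difference had r = 0.03 with transcript length. With the share of a transcript's 50-base windows that recur in other genes it had r = 0.09. The part of length or of shared windows in the order was not tested.

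**Figure D5:**
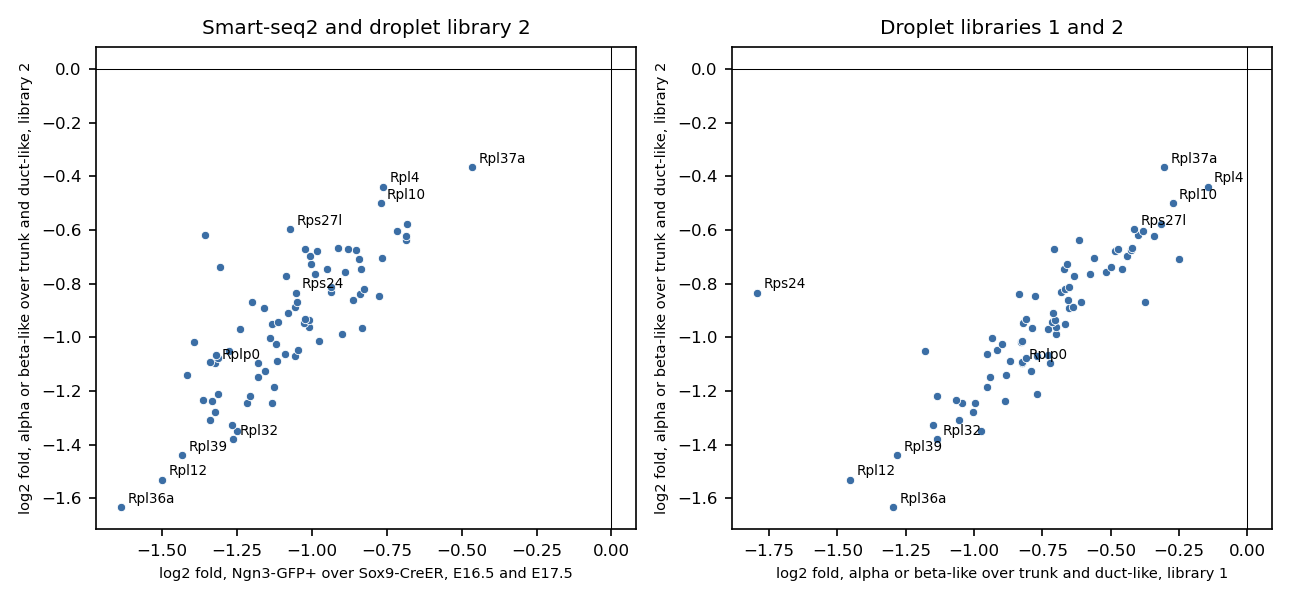
Change of each member, 1 point per gene (77 members): y axis, log2 ratio of alpha or beta-like over trunk and duct-like cells in droplet library 2; x axis, log2 fold of Ngn3-GFP+ over Sox9-CreER in Smart-seq2 (left) and the same droplet ratio in library 1 (right). Rpl36a lies at the low end of the y axis (-1.63) and Rpl37a at the high end (-0.37).

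Levels between members were less alike than their changes. As CPM per kilobase of gene, Rpl32 was highest, with a mean of 1480 and an SD of 667 over the 82 sets, and Rps14 (1150, SD 318), Rpl4 (1028, SD 327) and Rps29 (997, SD 394) were among the next. The ranges of these members over the sets overlapped, and their order was not tested. The SDs span sets of different sorts and days. Lowest were Rpl10l (0.00211), Rpl3l (0.0633), Rpl39l (0.363), Rpl23a (23.4, SD 10.3) and Rps15a (56.5, SD 21.3). Over 77 members a lower level went with a longer deposited gene (r = -0.43, rho -0.49). The deposited length was 5130 bases for Rps15a and 2657 for Rps19, and the part of gene length in the ranks was not tested. Over the same 77 members the level per kilobase followed droplet CPM of UMIs with r = 0.41 and 0.29, and the 2 droplet libraries followed each other with r = 0.21. By rank among the 80 shared members, Rps19 was 64th in Smart-seq2 and 5th in droplets, whereas Rps27l was 25th and 77th and Rps26 8th and 55th. A level here also depends on reads that fit other genes: a median of 40.2% of a member transcript's 50-base windows recurred in another gene. At least 50% of such windows were found in 27 of 80 members. Rps18 (86.7%), Rpl3 (85.6%), Rpl36a (85.5%), Rpl10 (85.4%) and Rpl23a (82.6%) were among them, so their counts are uncertain.

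The rare paralogues were nearly silent. Rpl10l, known from testis, had 6 counts in 5 sets and Rpl3l, known from muscle, 150 counts in 13 of 82 sets. Rpl39l, also known from testis, had 834 counts in 17 sets, of which 663 lay in 5 of the 6 early Ngn3-GFP+ sets, 1 in the 8 late sets and 0 in the 4 Sox9-CreER sets (which allows up to 0.0619 CPM over those sets). It was among the 23 members called lower in late sets, and no fold is given because the late sets held 1 count. Of 12 cells with at least 10 CPM, 7 were leukocyte-marked and 5 were in no class, 4 of them from 1 set of E10.5, with up to 196 CPM. In droplets Rpl39l had 24 and 7 UMIs, Rpl3l 0 and 1, and Rpl10l none in either library, which allows up to 0.0655 and 0.0643 CPM of UMIs. Their common partners Rpl3, Rpl10 and Rpl39 were detected in every set, and Rps4l had counts in 1954 of 2195 cells.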

How the data were processed

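Members and gene lists were chosen with earlier results of these data known. The deposited Smart-seq2 counts are reads per gene, and the submitters' processing notes name HTSeq 0.6.0, TopHat2 2.1.0 and Bowtie2 with build mm10. For the droplet UMI counts the same notes name Cell Ranger 2.0.2. Smart-seq2 used PCR and no molecular identifiers, per the labels' protocols, so its counts are not molecules. Counts were whole numbers with no normalization, and 92 ERCC spike-in rows were left out of totals. No gene encoded in mitochondria had Smart-seq2 counts. The authors' TPM values were not used: levels between genes are deposited counts as CPM divided by the deposited gene length, in place of the TPM planned.

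Each set's cells were summed (2838610 to 79253014 counts) and tested with edgeR 4.0.16 in R 4.3.3 (TMM, filterByExpr, quasi-likelihood F test, Benjamini-Hochberg over all genes, 0.05), a step tested on simulated counts. SE is the fold change divided by the root of F. Alternatives were RLE scaling, TMM without members, total counts, DESeq2 1.42.0, limma 3.58.1 on log2 mean CPM + 1, no filter, a replicate block, no marker-carrying cells and each set left out. Named members were the 8 largest called changes in each direction, 5 paralogue pairs, the stalk genes and Rpsa, and the extremes by level and rank. Member values by cell class were added after seeing the data.

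Droplet cells were kept from 1000 genes upward and up to 10% mitochondrial UMIs, and clustered with scanpy 1.11.5, members left out of the variable genes, and named where 3 markers were in 20% of cells and 2-fold higher, unless the 10 leading genes held more markers of another list. That left 7 and 3 of 20 clusters unnamed (1246 and 842 cells). Called doublets, 4 (0.117%) and 189 (2.79%), were removed, and 37 barcodes occurred in both libraries. Shared 50-base windows were counted over GENCODE vM21 transcripts. Values of some members are not reported here.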

Additional observations from a re-analysis of the deposited data

Results flagged for a closer look

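Among 40 sets of group values examined (the member share and the levels of Rplp0, Rplp1, Rplp2 and Rpsa in groups of 4 to 10 sets), 1 set stood apart from the rest of its group. Rpsa in the third explant set with U0126 was at 182 CPM, while the other 3 sets of that group held 137, 142 and 143 CPM and the 4 control sets 129 to 141 CPM. About 1 in 20 such groups is expected to show a value this far out by chance.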

How the results depend on the processing

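For the number of members lower, 143 of 185 repeats stayed within 1.5 times the reported count, for the number higher 173 of 185, and of 669 repeats of single named members 569 kept their call, 100 lost it and none changed direction. The exceptions are as follows. At E13.5 the GFPhigh against GFPlow comparison, with 2 members lower, had 13 with DESeq2, 1 with limma and 0 both with total counts and without marker-carrying cells. At E14.5 the 66 lower became 38 without those cells, and at E15.5 the 53 became 3 without them and 34 with total counts. For the Pdx1-Cre trend, with 1 member higher, DESeq2 and the removal of marker-carrying cells gave 2, and limma and total counts 0. Pdx1-GFP+ cells had 6 members higher with DESeq2. For Ngn3-Cre against Ptf1a-CreER, with 3 lower, the count was 1 with RLE scaling, 38 with DESeq2, 7 without the filter, 9 without marker-carrying cells, 12 with limma and 0 with total counts. The 23 members lower in late Ngn3-GFP+ cells were 10 without the filter and 0 without marker-carrying cells. Ins1-RFP+ against Gcg-GFP+ gave 2 lower with DESeq2 and 1 with limma. The cause of these shifts was not tested. With 1 set left out at a time, members lower ran from 0 to 1 at E13.5, 44 to 75 at E14.5, 1 to 20 at E15.5, 0 to 12 at E11.5 and 8 to 31 in late Ngn3-GFP+ cells; members higher ran from 73 to 77 in Sox9-CreER cells, with 0 to 1 lower, and 0 to 1 in the Pdx1-Cre trend. Where this left 1 set in an arm, that set was assumed to vary like the other groups.

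Set numbers were not used to pair the samples in the main tests, since in no comparison did the deviations of all same-numbered sets correlate above 0.1. That cut does not show that the sets were unpaired. In the GFPhigh and GFPlow gates all 3 numbered sets of E13.5 and of E14.5 nevertheless correlated best with their own number, a hint from the data and not from the design. With a replicate block on set number, members lower were 3 at E13.5, 60 at E14.5, 54 at E15.5, 0 at E11.5 and 12 in late Ngn3-GFP+ cells, and 75 were higher in Sox9-CreER cells. No member was called in either direction with U0126.

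Total-count scaling moved the split of all genes from 1147 higher and 1710 lower to 1493 and 1354 at E14.5, and from 509 and 238 to 381 and 336 in the Pdx1-Cre trend. In the droplets the alpha or beta-like share lay 15.1 and 13.4 points below that of trunk and duct-like cells, and 12.1 to 15.1 points below under the alternatives. Depth limits the values of Rpl39l, Rpl3l and Rpl10l, which had 0 to 24 UMIs per droplet library. Total-count scaling and the comparisons within E16.5 and E17.5 were chosen after seeing the data.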

Other observations

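Rpl6l, an L6-like member listed in the droplet tables alone, was at 22.1 CPM of UMIs in library 1 and 384 in library 2. That is a 17.4-fold higher level in library 2, beyond the range of the 77 members compared. Among those 77 the level in library 2 over library 1 had a median of 0.658-fold and ran from 0.174 for Rps28, 0.208 for Rpl27 and 0.243 for Rps21 to 3.20 for Rpl10, 3.24 for Rps2 and 3.29 for Rpl35. Over the 77 members the log2 ratio of library 2 over library 1 rose with transcript length by rank (rho 0.48, r = 0.17). Both libraries were E14.5 pancreas, and the cause of these differences between genes was not tested.

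Over the 82 Smart-seq2 sets the level of a member varied by 26.1% (coefficient of variation) for Rpl19, 27.5% for Rpl10 and 27.7% for Rps14, the steadiest common members, and by 48.7% for Rpl39, 49% for Rps27l and 51.2% for Rpl36a. These genes were picked out after their values were seen.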
